A study of Spinacia oleracea with 6 samples.

Results

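Photosystem I is the thylakoid membrane complex that uses light energy to pass electrons from plastocyanin, on the lumen side, to ferredoxin, on the stromal side. Its reaction centre is encoded in the plastid, whereas a ring of smaller subunits is encoded in the nucleus and imported into the chloroplast. Among the nuclear subunits, PsaD and PsaE form the stromal surface at which ferredoxin binds, PsaF is the docking site for plastocyanin, PsaH and PsaL lie on the side at which mobile light-harvesting complex can attach, and PsaG lies on the side of the permanent antenna.

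The genes of 6 such nuclear subunits were described here, out of 32450 genes in the deposited tables of a spinach (Spinacia oleracea) heat experiment. They were taken by their NCBI Gene numbers, which are psaD (110778649), PSAE-1 (110787548), psaH (110801787), psaL (110791435), PSAF (110775268) and PSAG (110775996). All 6 numbers were found in the tables, and the BTI_SOV_V1 reference gene table gave each of them the stated name as a synonym and the class protein-coding. In the same table the gene called PSAE-1 also carries the synonym PSAE-2, so the counts under this number may not separate PSAE copies if there are several. The gene lengths behind the deposited FPKM values, recovered from counts and FPKM, ran from 613 bp for psaH to 1004 bp for PSAF.

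RNA sequencing libraries were made in 2 groups of 3, heat plants at a day temperature of 35 °C and a night temperature of 25 °C, and control plants at a day temperature of 20 °C and a night temperature of 15 °C. The regime lasted 4 days in an illumination incubator. The cultivar, age and tissue are not in the labels, no tissue could therefore be checked against markers, and p-values measure only the spread between libraries that are not stated to be separate plants. The study set out to find genes that respond to heat.

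Library totals were 42.3 to 48 M counts in heat and 48.4 to 56.8 M in control. The TMM factors that edgeR used to scale libraries were 1.12 to 1.26 in heat and 0.778 to 0.915 in control, so the scaling itself differed between the groups, and results without these factors are given beside those with them. The members had 13488 to 103630 reads in a library, and the exact 95% Poisson interval of the lowest of these counts reached 1.70% above it, which covers counting error only.

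All 6 subunit genes were lower in heat, on the TMM scale to between 24.2% of the control level for psaL and 41.5% for PSAF. Every member was past an adjusted p of 0.05 in edgeR's quasi-likelihood test, with adjustment over 20145 tested genes. Of all tested genes, 13.6% (2735) were called lower by the same rule, a count that was 1427 without control library 2, 1542 without heat library 1 and 1471 with libraries scaled by total count alone. The median log2 fold change was -1.61 over the 6 members and 0.01 over all tested genes. With scaling by total count alone, the members' log2 fold changes were -1.59 to -0.82 (median -1.16) where the median of all genes was 0.47, and all 6 were still called lower. On FPKM, which divides a gene's counts by its length and by the library total, every heat library lay below every control library for each of the 6, which held for 10.5% of tested genes. In bulk samples, fewer cells of a type and less RNA per cell cannot be told apart.

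**Figure D1:**
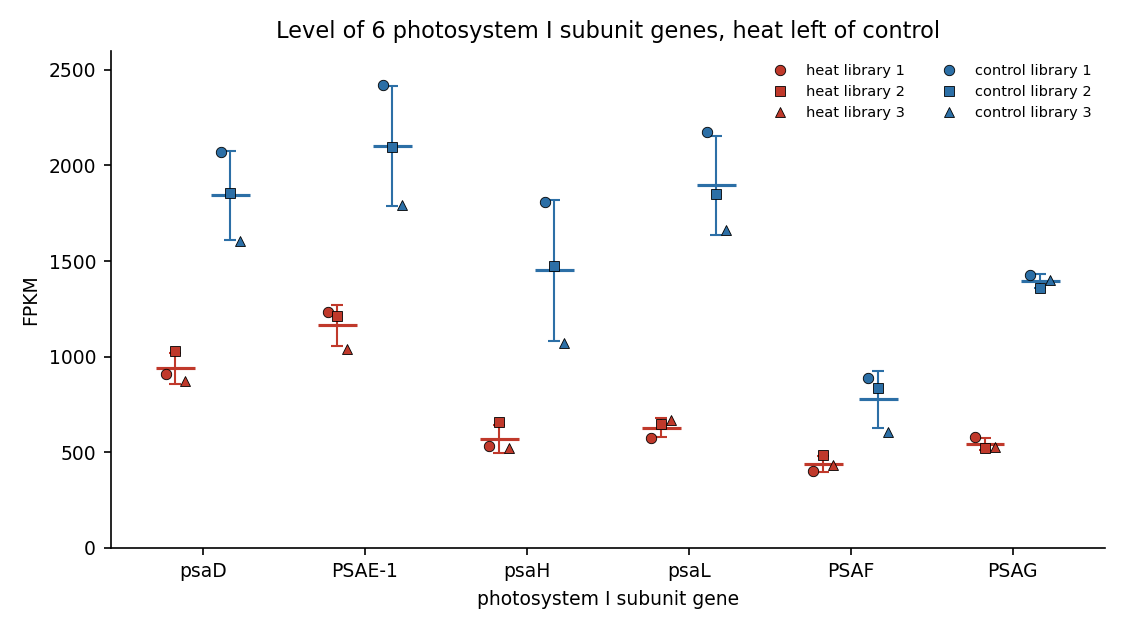
Level of each subunit gene in FPKM (linear axis from 0), with heat libraries in red left of control libraries in blue. Points are libraries, horizontal lines are means and bars are the SD over 3 libraries. In no gene do the groups overlap, and PSAF lies lowest in both groups.

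The stromal subunits, which bind ferredoxin, had the highest levels in heat. psaD stood at 911, 1031 and 875 FPKM in heat libraries 1 to 3, against 2071, 1854 and 1606 FPKM in control libraries 1 to 3. PSAE-1 had 1232, 1215 and 1042 FPKM in heat and 2419, 2097 and 1791 FPKM in control. In both genes the highest heat library remained well below the lowest control library, and control library 1 was the highest of all. In CPM, counts scaled with the TMM factors and not divided by length, psaD averaged 668 ± 95.6 CPM in heat and 1794 ± 83.9 CPM in control (SD, n = 3 each), with a log2 fold change of -1.42 (SE 0.19, edgeR adjusted p = 0.00294). PSAE-1 averaged 669 ± 96.5 CPM in heat and 1650 ± 117 CPM in control, with a log2 fold change of -1.30 (SE 0.19, edgeR adjusted p = 0.00431). On the TMM scale these genes thus kept 37.2% and 40.5% of their control level. By mean FPKM the control level was 1.96 and 1.81 times that in heat, a smaller fall.

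PSAF, the subunit at which plastocyanin docks, had the lowest level per length of the 6 in both groups. Its libraries read 401, 484 and 435 FPKM in heat and 887, 838 and 605 FPKM in control. Control library 3 lay nearer to the heat values than the other control libraries did, yet above all of them. The mean was 378 ± 50.7 CPM in heat and 909 ± 111 CPM in control (SD, n = 3 each), and the log2 fold change of -1.27 (SE 0.19, edgeR adjusted p = 0.00439) was the smallest change among the members.

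psaL and psaH, which lie together on one side of the complex, fell as well, with larger fold changes. psaL had 572, 647 and 668 FPKM in heat, against 2175, 1852 and 1661 FPKM in control. psaH had 532, 656 and 520 FPKM in heat, against 1807, 1477 and 1069 FPKM in control. The groups did not overlap in either gene. psaH varied most of the 6 on FPKM, its highest library being 1.26 times its lowest in heat and 1.69 times in control. psaL averaged 477 ± 38.3 CPM in heat and 1973 ± 124 CPM in control (SD, n = 3 each; log2 fold change -2.05, SE 0.18, edgeR adjusted p = 0.000741). psaH averaged 299 ± 55.4 CPM in heat and 1033 ± 185 CPM in control (log2 fold change -1.79, SE 0.22, edgeR adjusted p = 0.00245). Per length, psaL stood below both PSAE-1 and psaD in heat, and between them in control.

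PSAG, a subunit on the antenna side that is found in plants and green algae, had 580, 525 and 525 FPKM in heat, against 1428, 1357 and 1399 FPKM in control. On FPKM its libraries were the closest of the 6 genes, the highest being 1.1 times the lowest in heat and 1.05 times in control, which did not hold in CPM. The other 5 genes were lowest in control library 3 on FPKM, and PSAG was not. On the TMM scale PSAG was highest in that library, at 1199 CPM, where the other 5 were lowest. Its mean was 309 ± 28.0 CPM in heat and 1095 ± 89.9 CPM in control (SD, n = 3 each), with a log2 fold change of -1.83 (SE 0.17, edgeR adjusted p = 0.000878).

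By mean FPKM the order in heat was PSAE-1 (1163 ± 105), psaD (939 ± 81.7), psaL (629 ± 50.5), psaH (569 ± 75.3), PSAG (543 ± 31.6) and PSAF (440 ± 41.6). In control it was PSAE-1 (2103 ± 314), psaL (1896 ± 260), psaD (1844 ± 233), psaH (1451 ± 370), PSAG (1395 ± 35.9) and PSAF (777 ± 151). In heat, psaL and psaH, and psaH and PSAG, differed by no more than the sum of both SDs, while PSAE-1, psaD and PSAF each differed from their neighbours by more. In control the only neighbours that differed by more were PSAG and PSAF. Among the 20145 tested genes ranked by mean FPKM, the members held ranks 56 to 208 in heat and 45 to 118 in control. They stayed among the abundant transcripts in heat. Together they took 0.328% ± 0.0188 of a library's counts in heat and 0.723% ± 0.101 in control (SD, n = 3 each; exact permutation p = 0.1, two-sided, the smallest that 3 libraries against 3 allow).

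The log2 fold changes of the 6 genes ran from -2.05 to -1.27. Whether they fell in proportion was asked of ratios between members within a library, which do not depend on how libraries are scaled. In 10 of 15 pairs the ratios in heat and in control did not overlap, and over all 15 the ratio changed by 1.03-fold to 1.72-fold. Ratios without overlap were common in these libraries, at 52.4% of all pairs of the 10765 genes that had a mean of at least 10 CPM and reads in every library, and at 48.2% of pairs among the 1928 of them called lower (shares added after the data were seen). Against these shares, 10 of 15 dependent pairs is not a result particular to the 6. An exact permutation test (two-sided) was run on each pair, whose smallest possible p of 0.1 (0.150 after adjustment over the 15 pairs) was reached by those 10 pairs, so the design cannot place any of them past 0.05. The 15 ratios come from 6 genes and are not independent.

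psaL had the largest ratio changes. The ratio of psaL to PSAF was 1.43, 1.34 and 1.54 in heat, against 2.45, 2.21 and 2.74 in control, a difference of -0.78 on the log2 scale. The ratio of PSAE-1 to psaL was 2.15, 1.88 and 1.56 in heat, against 1.11, 1.13 and 1.08 in control, a difference of 0.74. The control libraries held a nearly constant PSAE-1 to psaL ratio, with an SD of 0.036 on the log2 scale, and the heat libraries spread more widely, with an SD of 0.234. The ratio of psaD to psaL was 1.59, 1.59 and 1.31 in heat, and 0.952, 1.0 and 0.967 in control, so that in control both genes stood at about the same level per length.

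Seen by these ratios, the 6 fell into a set that kept more of its level, psaD, PSAE-1 and PSAF, and a set that kept less, psaH, psaL and PSAG. The sets were drawn after the values were seen and are a description with no test of their own, and the gap between them depended on single libraries. In all 9 pairs across the sets the groups did not overlap, with changes of 0.36 to 0.78 in log2 ratio. As the sets were drawn from these ratios, that count follows in part from the choice. Among all pairs of genes called lower, 48.2% had no overlap. In the 6 pairs within a set the changes were 0.037 to 0.26 and the groups overlapped in all but psaD to PSAE-1, which was 0.739, 0.848 and 0.839 in heat and 0.856, 0.884 and 0.897 in control (a log2 difference of -0.12, or -0.06 without heat library 1). The ratio of PSAE-1 to PSAF, for instance, was 3.07, 2.51 and 2.39 in heat and 2.73, 2.50 and 2.96 in control. Without control library 1 the log2 change within a set reached 0.33 (psaH to psaL) where that of psaD to psaH, across the sets, was 0.27. Without heat library 3 the same ratios gave 0.37 and 0.34, and the groups did not overlap for psaH to psaL. Without control library 3, psaL to PSAG had a change of -0.32, with no overlap, and psaD to PSAG one of 0.29. The ratio of psaH to PSAG was 0.918, 1.25 and 0.990 in heat and 1.26, 1.09 and 0.764 in control, a wide spread in which control library 3 was lowest.

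**Figure D2:**
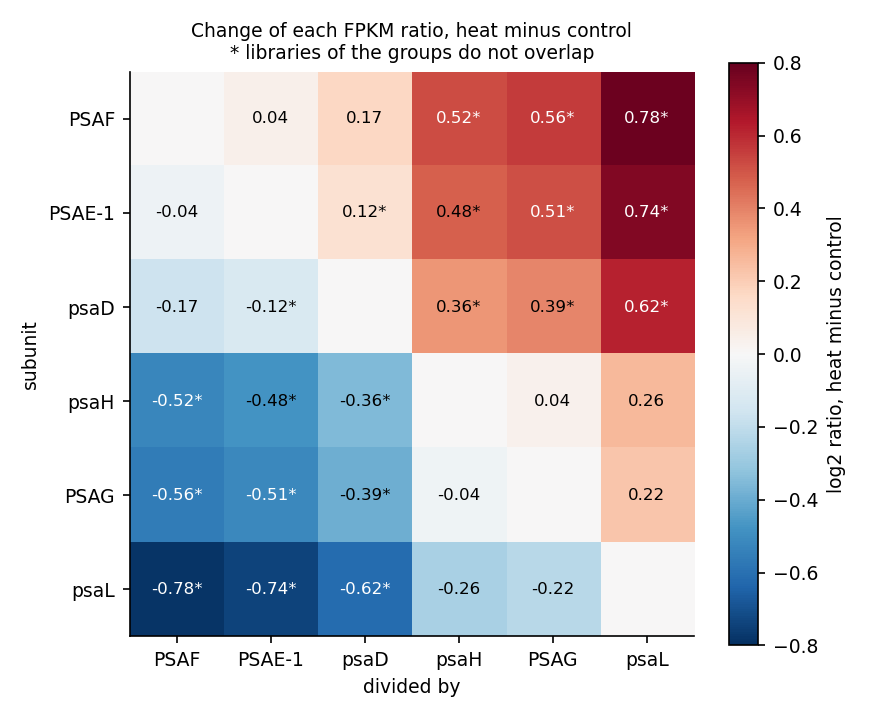
Change of the FPKM ratio of the subunit in each row divided by that in each column, as mean log2 ratio in heat minus that in control, with n = 3 libraries each and an asterisk where the libraries of the groups do not overlap. Changes of 0.36 to 0.78 in size lie between psaD, PSAE-1 and PSAF on one hand and psaH, psaL and PSAG on the other, sets drawn after the values were seen.

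The same FPKM values can be given as each gene's share of the summed FPKM of the 6, which restates the ratios and adds no separate support. psaD, PSAE-1 and PSAF together made up 59.3% ± 1.27 of the sum in heat and 49.9% ± 0.660 in control (SD, n = 3 each). This set was drawn for keeping more of its level, so a higher joint share in heat follows from that choice. PSAE-1 took 27.1% ± 1.81 in heat and 22.2% ± 0.203 in control, and psaL took 14.7% ± 1.52 in heat and 20.0% ± 0.45 in control. Shares of psaD (21.9% ± 0.630 in heat, 19.5% ± 0.283 in control) and PSAF (10.3% ± 0.678 in heat, 8.17% ± 0.699 in control) were higher in every heat library than in any control library. For these 4 genes the exact permutation p was 0.1, or 0.150 adjusted over the 6 shares. Shares of psaH (13.3% ± 0.992 in heat, 15.2% ± 1.84 in control) and PSAG (12.7% ± 1.11 in heat, 14.9% ± 2.05 in control) overlapped between the groups (exact permutation p = 0.2 each, also 0.2 adjusted). The size of both of these differences depended on single libraries. Without control library 3 the PSAG difference of -2.21 percentage points became -1.07, and the psaH difference of -1.91 became -2.91. Without control library 1 the PSAG difference became -3.05 and the psaH difference -1.11. Without heat library 2 they were -1.61 and -2.47.

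**Figure D3:**
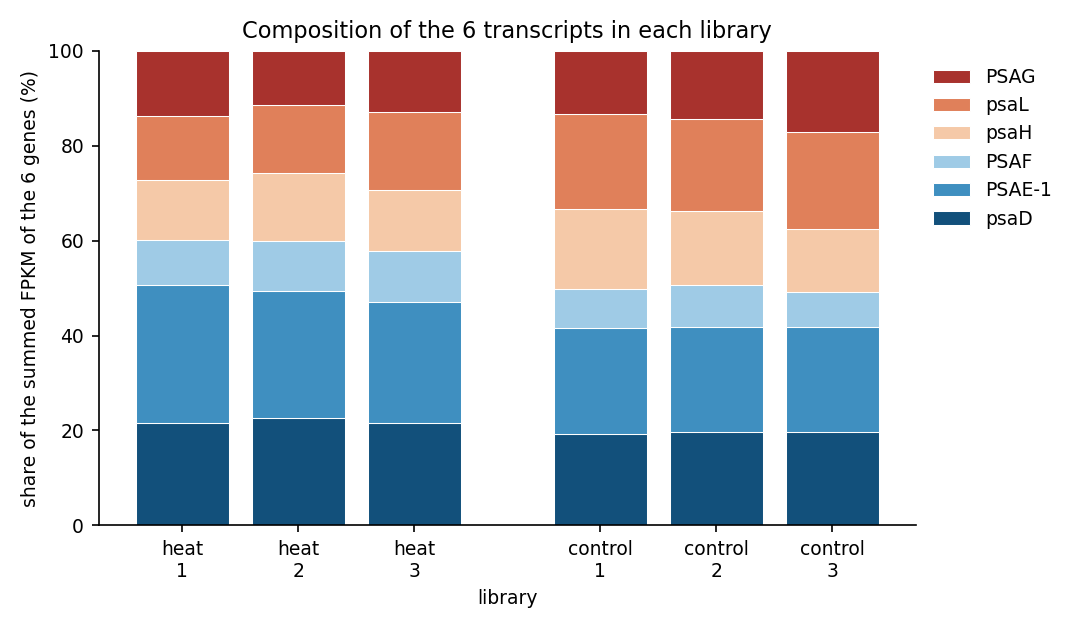
Share of each subunit in the summed FPKM of the 6 genes (%), 1 bar per library, heat bars left of control bars. The blue segments, psaD, PSAE-1 and PSAF, a set drawn after the values were seen, average 59.3% in heat and 49.9% in control.

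A further fit, chosen after the data had been seen, scaled every library to the geometric mean count of the 6 members, so that a fold change is relative to the 6 together. On this scale psaL lay at -0.43 (SE 0.18) and PSAF at 0.34 (SE 0.17). edgeR's quasi-likelihood test called 0 of the 6 members (adjusted p from 0.0537 for psaL to 0.379 for psaH), with 1 member, psaL, at an unadjusted p below 0.05. DESeq2 with the same scaling called 1, psaL (adjusted p = 0.0230). Of all tested genes, 77.5% were called in either direction in the edgeR fit, with a median of 1.63. The share called by DESeq2 on this scale was not counted, so its single call has no background beside it. The test across genes thus called 0 or 1 of the members as unequal to the mean of the 6, depending on the tool. That mean includes the member itself, which draws its value toward it, and no member was tested against the others alone.

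Genes next to photosystem I in the electron transport chain were lower too, though not equally. PETE, plastocyanin, which docks at PsaF, averaged 154 ± 22.0 CPM in heat and 951 ± 71.2 CPM in control (SD, n = 3 each). Its log2 fold change of -2.62 (SE 0.19, edgeR adjusted p = 0.000448) was below that of each of the 6, a difference that was not tested. PETF, ferredoxin, which binds at PsaD and PsaE, averaged 181 ± 20.7 CPM in heat and 464 ± 114 CPM in control (log2 fold change -1.36, SE 0.22, edgeR adjusted p = 0.00571). FNR, the reductase that passes electrons from ferredoxin to NADP, averaged 520 ± 43.5 CPM in heat and 1146 ± 19.3 CPM in control (log2 fold change -1.14, SE 0.16, edgeR adjusted p = 0.00379). Beside them, the log2 fold changes of psaD and PSAE-1, which bind ferredoxin, were -1.42 and -1.30. That of PSAF, at which plastocyanin docks, was -1.27, a smaller change than that of PETE.

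In the prepared lists of other photosynthesis genes, 13 of 16 tested genes were lower, 0 were higher and 3 did not pass edgeR's test, with a median log2 fold change of -1.57. All 13 were nuclear. The 5 nuclear photosystem II subunits tested were all lower, at a median of -1.56, from -1.81 for PSBQ and -1.77 for PSBO, of the oxygen-evolving complex, to -1.16 for PSBR, whose call ended without control library 2 (edgeR adjusted p = 0.0593) and with limma on log2(FPKM + 1) (adjusted p = 0.0987). Both genes of the photosystem II antenna and its regulation were lower, lhcb1.3 at -3.26 and psbS at -2.22. petC, the Rieske protein of the cytochrome b6f complex upstream of plastocyanin, was lower at -1.30 (SE 0.20, edgeR adjusted p = 0.00539), and ATPG and AtpC of the ATP synthase were lower at -2.30 and -1.58. The plastid-encoded genes tested in these lists did not pass, petB of the cytochrome b6f complex at -1.08 (edgeR adjusted p = 0.260, and -0.0073 without control library 3) and atpF of the ATP synthase at -1.77 (edgeR adjusted p = 0.119). Both had few reads, 54 to 214 in a library for petB and 3 to 27 for atpF, so they give no contrast between plastid and nuclear genes. HEMB, of tetrapyrrole synthesis, had a log2 fold change of -0.43 (edgeR adjusted p = 0.143) that was 0.031 when libraries were scaled by total count alone.

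**Figure D4:**
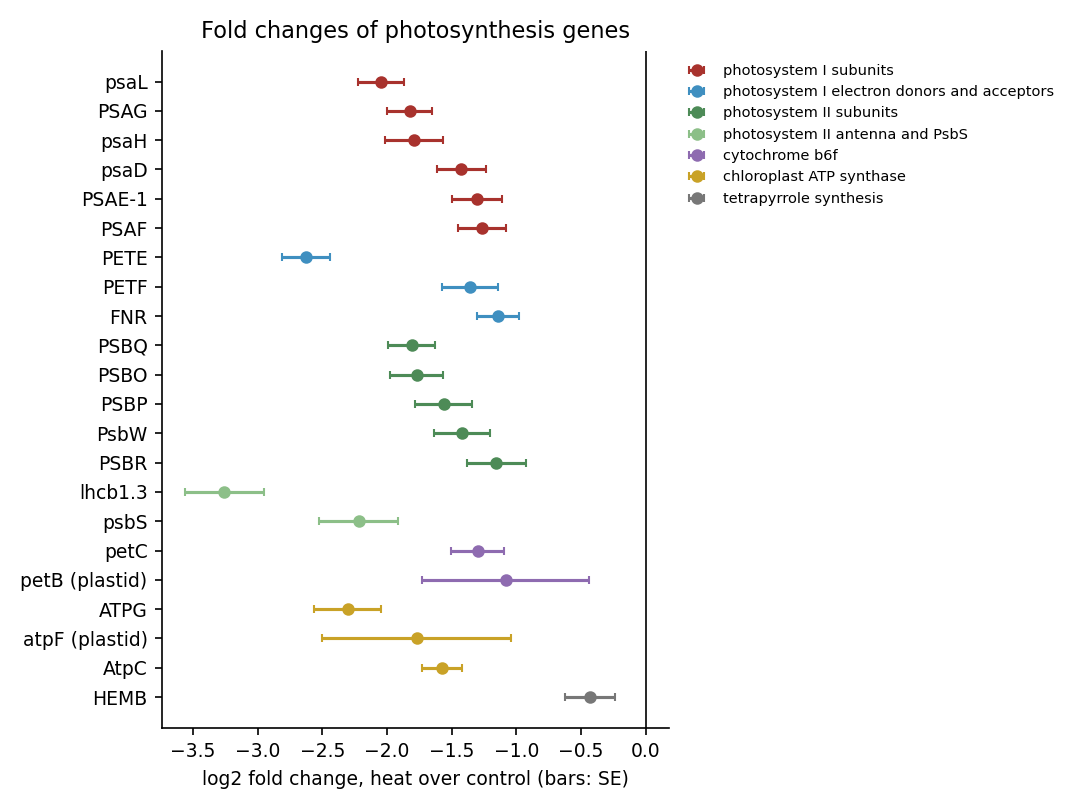
Log2 fold change of heat over control from edgeR, with its SE, for the 6 photosystem I subunits and 16 other tested photosynthesis genes, coloured by list. The members lie between -2.05 and -1.27, within the range of the other nuclear photosystem genes, and the plastid genes petB and atpF have wide errors.

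Plastid-encoded photosystem I subunits and assembly factors could not be set beside the nuclear ones. psaA, psaB, psaC, psaI, psaJ and ycf4 were not analysed here, and ycf3, an assembly factor of photosystem I, had 0 reads in every heat library and 0, 4 and 5 reads in control libraries 1 to 3, too few to be tested.

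The sum of the 6 photosystem I genes was set against the sum of the 5 nuclear photosystem II subunits, the nearest group in the tables. Per length, photosystem I to photosystem II was 0.750, 0.798 and 0.809 in heat, against 0.823, 0.851 and 0.893 in control. The groups did not overlap, but the difference of -0.12 on the log2 scale was small and had an exact two-sided permutation p of 0.1, the smallest possible. Counts not divided by length gave -0.06, with overlapping groups (exact permutation p = 0.4). The photosystem II sum leaned most on PSBR, the highest of the 5 by mean FPKM (2122 in heat, 3469 in control). PSBR also had the smallest log2 fold change of the 5, -1.16. The ratio without PSBR was not tested, so the difference cannot be given to photosystem II as a whole. The log2 fold changes of the 6 members were spread over 0.78.

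Other genes whose profile over the 6 libraries was most like the members' were sought among 10763 tested genes with a mean of at least 10 CPM, by the root mean square difference of centred log2 CPM from the members' mean profile. The nearest 5 were LOC110783632 (synonym E37; 0.0713), LOC110786904 (0.0832), LOC110792284 (0.0849), LOC110786555 (0.0882) and PSBO (LOC110801892; 0.103). Only PSBO is in the photosynthesis lists, and LOC110786904, LOC110792284 and LOC110786555 have no name in the reference table. LOC110783632 averaged 42.3 ± 4.90 CPM in heat and 121 ± 2.77 CPM in control (SD, n = 3 each). The members themselves lay at 0.0946 (psaD) to 0.233 (psaL) from their own mean, which includes each of them and so draws them nearer. Of the other genes, 147 (1.37% of those searched) lay within the distance of psaL and 4 within that of psaD. A small share of other genes was thus as near to the mean profile as the members were.

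**Figure D5:**
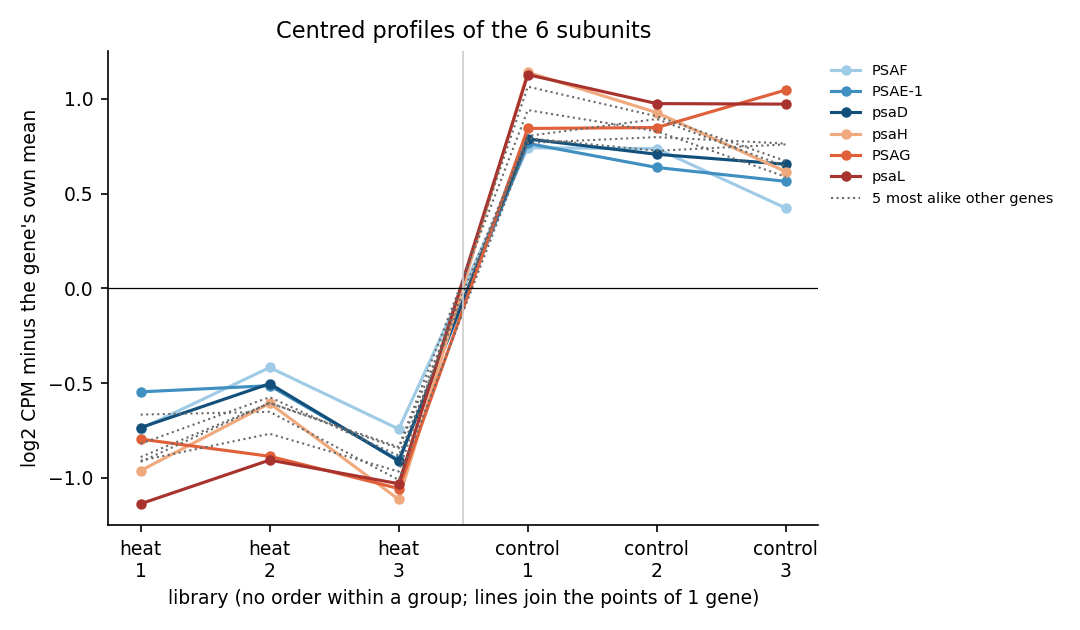
Log2 CPM on the TMM scale minus each gene's own mean, by library, for the 6 members (coloured) and the 5 most alike other genes (dotted grey), heat libraries left of control libraries. The members share the step between the groups, psaL has the widest step, and PSAG is highest in control library 3 where the other 5 are lowest.

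None of the 6 members is the next gene to another in the order of the reference assembly. Of the 12 genes next to a member on either side, 10 were tested, of which 2 were lower, 0 higher and 8 did not pass, with a median log2 fold change of -0.16, against 13.6% lower over all tested genes.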

How the data were processed

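RNA sequencing values of 6 spinach libraries were used. The tools named, per the submitters' processing notes, are HISAT2 2.0.4 with HTSeq 0.9.1 and DESeq 1.18.0. Build, strand use and the handling of multiply aligned reads were not given in the sources used here, so reads shared by gene copies or overlapping genes may have been split or dropped. The deposited counts are whole numbers per gene and library. The authors' FPKM values equalled counts over 1 constant length per gene and the library total, within a relative tolerance of 1e-06 for all 17325 genes checked, those with at least 100 reads in a library. A gene with that many reads in only 1 library passes this check by construction. Names came from the BTI_SOV_V1 gene table, which matched 82.3% of gene numbers; its coordinates were used only for the order of neighbouring genes.

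Counts were tested with edgeR 4.0.16 in R 4.3.3 (quasi-likelihood test, TMM, edgeR's filter on low counts, group as the only term, two-sided, Benjamini-Hochberg adjustment over all tested genes, threshold 0.05). On simulated data it was checked only for finding set fold changes, with as many genes raised as lowered. False calls were not counted there, and a difference in scaling between the groups, as seen here, was not simulated. CPM were computed from the TMM-scaled library totals. Ratios and shares between members used FPKM. Alternatives were library size scaling, no filter, DESeq2 1.42.0, limma 3.58.1 on log2(FPKM + 1) and log2(FPKM + 0.1), a replicate block, CPM for FPKM, and each library left out. The members and lists were chosen with earlier results of these data known. All 6 members were named, lists of up to 4 tested genes in full, and of the longer list the 2 largest and the smallest changes; the 5 most alike genes followed a stated distance. Promoter and protein sequences were not used here.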

Additional observations from a re-analysis of the deposited data

How the results depend on the processing

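All 6 members stayed lower and past the threshold in each of the 12 alternatives to the edgeR test, with log2 fold changes from -2.11 to -0.80 and adjusted p up to 0.0310, the weakest values coming from limma on FPKM. Over all genes, the count called was 5074 (2735 lower of 20145 tested), and 6653 with DESeq2 (3561 lower of 22445). It became 7759 under library size alone (6288 higher, 1471 lower). With limma on log2(FPKM + 1) and log2(FPKM + 0.1) it was 8012 and 8119 (1559 and 1576 lower). With single libraries left out it ran from 2291 (without control replicate 2) to 4355 (without control replicate 1), and was 2651 without heat replicate 1. The replicate block gave 2628 genes (1580 lower) and kept all 6 members (log2 fold changes -2.05 to -1.27, adjusted p up to 0.0285). No pairing by replicate number was seen. Deviations from the group means correlated at -0.13, -0.12 and -0.29 for numbers 1 to 3, across genes, and no library correlated best with its own number. Such deviations constrain one another within a group, so this check cannot exclude a pairing. The count of pairs without overlap stayed at 10 or 11 of 15, but these alternatives could not lower it. Leaving out a library cannot make separate groups overlap, and CPM in place of FPKM changes each ratio only by a constant. The psaL call relative to the 6 rested on the test, with 0 members called by edgeR and 1 by DESeq2, and 0 in each edgeR fit that left out a library. The log2 difference of the PSAE-1 to PSAF ratio, -0.043, ran from -0.15 to 0.028 with single libraries left out and was above 0 without heat library 3 or control library 3, and that of psaH to PSAG, 0.037, ran from -0.17 to 0.19 and was below 0 without heat library 2 or control library 3. The photosystem I to photosystem II difference ran from -0.15 to -0.09 with single libraries left out. HEMB changed sign to 0.031 under library size alone and 0.017 with both limma fits, and the PSBR call ended with limma on log2(FPKM + 1) and log2(FPKM + 0.1) and without control library 2 (adjusted p = 0.0987, 0.0970 and 0.0593). The cause was not tested. Depth did not limit the members, and petB and atpF had too few reads for a precise fold change.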
